A study of Mus musculus with 6 samples.

Results

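The genes described here encode RNA-processing and translation factors in the neocortex of adult *Khsrp*-/- and wild type mice. They are the 29 probes, for 26 genes, whose gene symbol begins with the name of a family of RNA-binding proteins, splicing factors, RNA helicases, deadenylation and polyadenylation factors or translation initiation factors (*Elavl*, *Celf*, *Mbnl*, *Rbm*, *Hnrn*, *Srsf*, *Nova*, *Ddx*, *Dhx*, *Cnot*, *Cpsf*, *Eif*, *Igf2bp*, *Ythd* and related names). They were found among the 1788 probes, for 1714 genes, that the study's table of changed genes names, out of 60915 probes on the array. The Y-linked *Eif2s3y* and *Ddx3y* were left out of the list. The table holds probes that were higher in *Khsrp*-/- cortex, of which 25 (22 genes) are members, and probes that were lower, of which 4 are members. The higher block has 1522 probes and the lower block 266. The paper reports more lower than higher mRNAs, so the lower block names only a part of its lower ones. The lower probes described here also lay further from equality than the higher block's limit. The blocks are therefore not compared in number of members or size of difference. The members were thus selected on the difference between the genotypes on these same arrays, and every difference given below for them is a description that carries no test. For genes of these families that the table does not name, probes could not be named, so the members do not stand for their families.

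The study measured RNA in neocortex of mice without KHSRP, an RNA-binding protein that recognises AU-rich elements and promotes decay of the mRNAs that carry them. It asked which mRNAs differ in abundance when the protein is missing. Both genotypes have 3 arrays, each labelled as 1 adult male mouse. *Khsrp*-/- mice carry a constitutive deletion in *Khsrp*, so every cell type and every age lacked the protein, and wild type mice were littermates with intact *Khsrp*. No treatment is given for either group, and the study's table calls the tissue PFC where the array labels say cortex. The probe for *Khsrp* was not analysed here, so the genotype of each array rests on its label.

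RNA-binding proteins of these families act at each step between transcription and translation. Serine/arginine-rich and hnRNP proteins, MBNL, NOVA and CELF proteins choose splice sites, CPSF cleaves the 3′ end before polyadenylation, and the CCR4-NOT complex removes the poly(A) tail. ELAVL proteins, also called Hu proteins, bind AU-rich elements and are known to stabilise many of the mRNAs that KHSRP destabilises, and eIF2 brings the initiator tRNA to the ribosome.

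All values are scaled log2 signals, the log2 of the processed signal minus the 75th percentile of that array. Negative values are therefore signals below that percentile, and the level of a probe is compared only with the same probe on other arrays. Each array had between 71.3% and 82.6% of its spots well above background and 0 saturated spots, and all 29 member probes were well above background on all 6 arrays. No slide label was read, and arrays with identical scan times were taken to share a slide. This puts wild type arrays 1 and 2 on a slide and *Khsrp*-/- arrays 2 and 3 on another. *Khsrp*-/- array 1 and wild type array 3 then share the only slide that holds both genotypes. The tissue is bulk cortex, in which fewer cells of a type and less RNA per cell cannot be told apart. Of 27 markers of neurons, astrocytes, oligodendrocytes, microglia and endothelium only *Snap25*, *Fabp7* and *Slc1a2* were named, so no list could be summed, and the makeup of the tissue was not checked beyond their values below.

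*Khsrp*-/- arrays 1 and 3 went against the label male. *Uty*, a Y-linked histone demethylase, read -3.42, 2.84 and -3.48 in *Khsrp*-/- cortex, against 2.51, 2.72 and 2.72 in wild type cortex, each in the order of arrays 1, 2 and 3 as in all values below. *Ddx3y*, the Y-linked relative of the helicase genes described here, read -7.68, -1.81 and -6.18 against -1.93, -1.92 and -2.20. *Eif2s3y*, the Y-linked gene for a subunit of eIF2, read -2.79, -0.04 and -3.52 against -0.18, -0.10 and -0.18. *Khsrp*-/- array 2 thus lay with the wild type arrays for these genes, while arrays 1 and 3 lay far below them, and *Ddx3y* and *Kdm5d* were not well above background on those 2 arrays. *Kdm6a*, an X-linked gene known to escape X inactivation, read 2.13, 2.10 and 2.66 in *Khsrp*-/- cortex, against 1.61, 1.497 and 1.79 in wild type cortex, higher on all 3 *Khsrp*-/- arrays, including the array with Y-linked signal. Each member is therefore also given for *Khsrp*-/- array 2 alone against the wild type mean, a single array without a replicate, and for the shared slide.

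**Figure D1:**
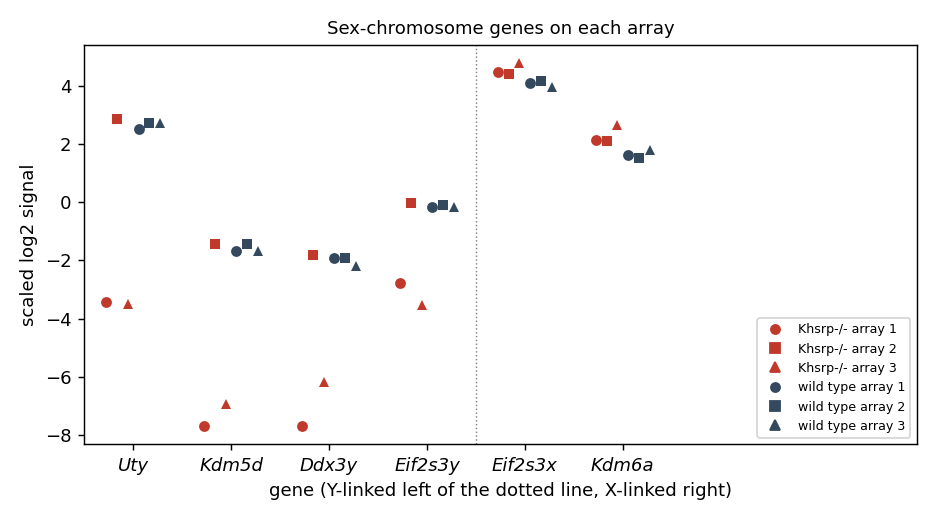
Scaled log2 signal (y axis) of 4 Y-linked and 2 X-linked genes (x axis) on each *Khsrp*-/- (red) and wild type (dark blue) array, with array number shown by marker shape. Arrays 1 and 3 of *Khsrp*-/- sit far below the others for the Y-linked genes, as for *Uty* at -3.42 and -3.48 against 2.84 on array 2.

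As a group, the 25 members of the higher block had a median difference of 0.48 on the log2 scale (a fold of 1.39), from 0.32 for *Cnot7* to 1.03 for *Ddx43*. The 4 members of the lower block had a median of -0.87. The median of all probes was -0.00056, and those of the whole higher and lower blocks were 0.56 and -1.08. With limma's unadjusted p under 0.05 and a difference of at least 25% of the lower mean, 22 of 25 members were higher, where 9.26% of all 48436 probes tested were, and 4 of 4 were lower, where 7.03% of all probes were. *Celf1*, *Cnot7* and *Hnrnpll* did not pass. After Benjamini-Hochberg adjustment over all probes 0 of 29 members passed, where 0.0950% of all probes did, and limma's adjusted p ran from 0.0956 to 0.361. Every *Khsrp*-/- array lay above every wild type array in 24 of 25 higher members, where 12.4% of all probes had that order, and below in all 4 lower members, where 9.90% did. Nothing is read from these counts, since the same contrast chose the probes.

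The 3 named cell type markers, which come from the same table, were also higher in *Khsrp*-/- cortex. The astrocyte markers *Fabp7* and *Slc1a2* differed by 0.88 (SE 0.26) and 0.48 (SE 0.18), and the neuronal marker *Snap25* by 0.55 (SE 0.20). On the shared slide these were 0.11, 0.15 and 0.33, and for *Khsrp*-/- array 2 they were 1.30, 0.60 and 0.49. The part of cell makeup in the members' differences was not tested.

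How many members passed moved with the scaling and with single arrays. Without scaling, the median difference of all probes was -0.29. All members kept their sign there, but 2 of the 25 higher members (*Ddx43* and *Rbms3*) passed, where 2.52% of all probes were higher, and the split of all probes called went from 4484 higher and 3405 lower to 1221 higher and 7287 lower. Of the higher members 11 passed without *Khsrp*-/- array 3, 8 without wild type array 1 and 9 without wild type array 2, and the share of all probes called higher fell with them, to 5.83%, 5.20% and 5.68%. Without *Khsrp*-/- array 1 limma's adjusted p fell below 0.05 for 3 members, *Elavl4* (0.0386), *Rbms2* (0.0403) and *Ddx43* (0.0420), while the share of all probes that passed after adjustment went up to 4.22%, and 0 members did so without any other single array.

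**Figure D2:**
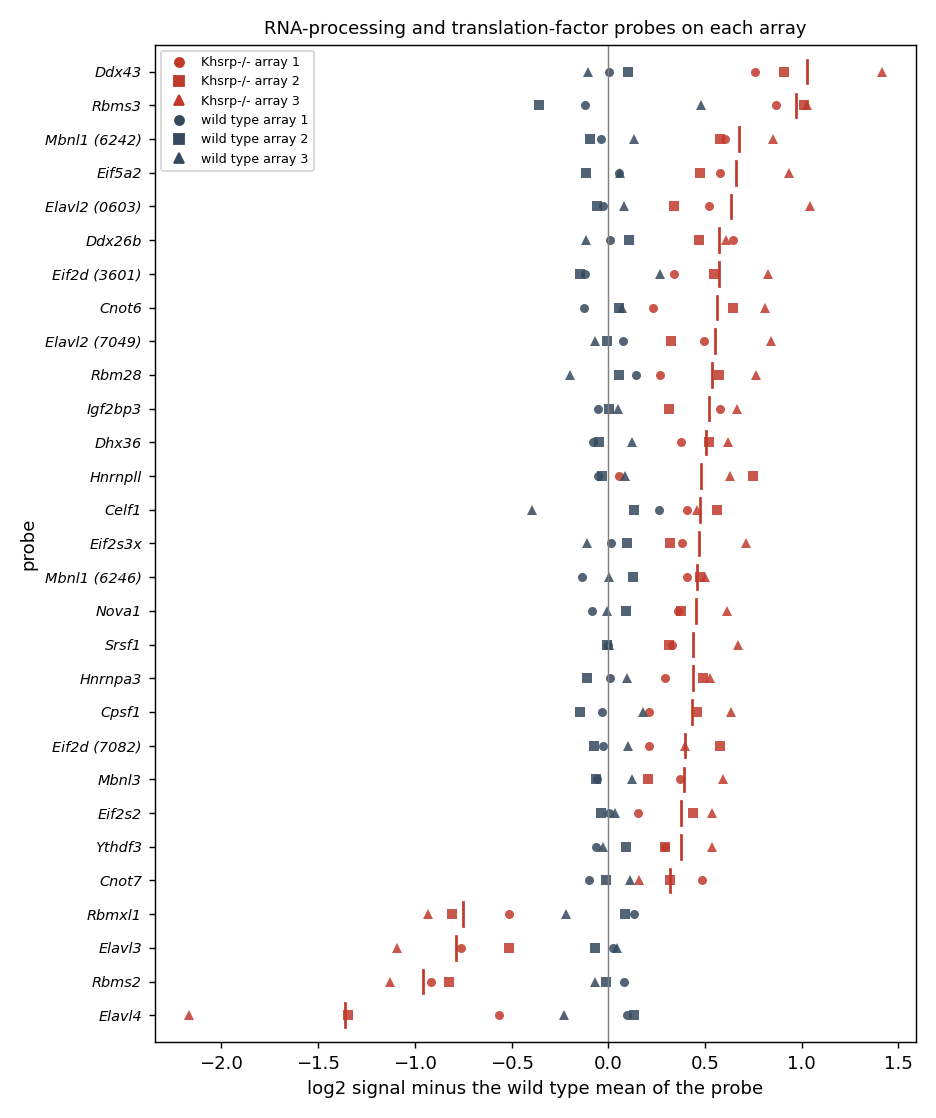
Scaled log2 signal of each member probe (y axis, the 4 digits in brackets end the probe name where a gene has 2) minus the wild type mean of that probe (x axis, log2), with *Khsrp*-/- arrays in red, wild type arrays in dark blue and the *Khsrp*-/- mean as a vertical bar. *Hnrnpll* is the only member whose arrays overlap between genotypes, and *Elavl4* has the widest spread among *Khsrp*-/- arrays.

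The *Elavl* genes encode the Hu proteins, of which *Elavl2* (HuB), *Elavl3* (HuC) and *Elavl4* (HuD) are the neuronal members. They stood in both blocks, with *Elavl2* in the higher and *Elavl3* and *Elavl4* in the lower. *Elavl4* read 7.25, 6.47 and 5.65 in *Khsrp*-/- cortex, against 7.92, 7.95 and 7.59 in wild type cortex. The groups did not overlap, but array 1 lay close to the lowest wild type array and array 3 was the lowest of all. The means were 6.46 ± 0.80 and 7.82 ± 0.20 (SD, n = 3), a difference of -1.36 with an SE of 0.38, or 2.57-fold lower in *Khsrp*-/- cortex. It was -0.33 on the shared slide and -1.35 for *Khsrp*-/- array 2, and ran from -1.76 to -0.96 with each array left out in turn. *Elavl4* had the largest SD among *Khsrp*-/- arrays of the 29 member probes.

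*Elavl3* read 1.35, 1.602 and 1.02 in *Khsrp*-/- cortex, against 2.14, 2.04 and 2.16 in wild type cortex. All *Khsrp*-/- arrays lay below all wild type arrays, which were close together. The difference was -0.79 with an SE of 0.19, and it was -0.81 on the shared slide and -0.51 for *Khsrp*-/- array 2.

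*Elavl2* was measured by 2 probes that moved the same way. The probe ASMM10P000603 read -0.38, -0.56 and 0.15 in *Khsrp*-/- cortex, against -0.92, -0.95 and -0.81 in wild type cortex, a difference of 0.63 with an SE of 0.21. The probe ASMM10P007049 read -2.08, -2.26 and -1.74 against -2.51, -2.59 and -2.65, a difference of 0.55 with an SE of 0.18. On both probes all *Khsrp*-/- arrays were above all wild type arrays, with array 3 the highest and array 2 the lowest of them. The shared slide gave 0.44 and 0.56, and *Khsrp*-/- array 2 gave 0.34 and 0.33.

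**Figure D3:**
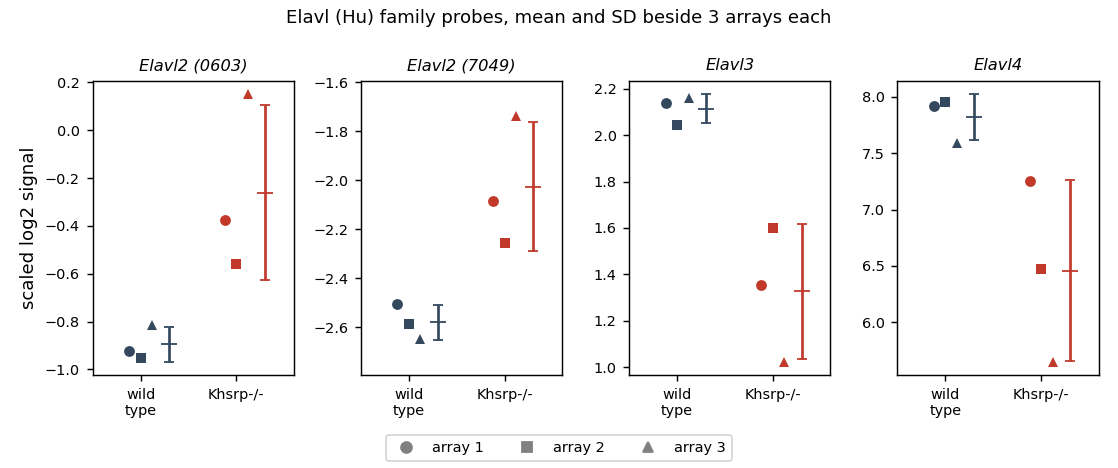
Scaled log2 signal (y axis, its own range in each panel) of the 4 *Elavl* probes on 3 wild type (dark blue) and 3 *Khsrp*-/- arrays (red), with mean and SD beside them and array number by marker shape. Both *Elavl2* probes lie higher and *Elavl3* and *Elavl4* lower in *Khsrp*-/- cortex, and the *Khsrp*-/- arrays spread more than the wild type arrays on all 4 probes.

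*Rbms2* and *Rbms3* encode single-stranded nucleic acid binding proteins of 1 family and were also listed in opposite blocks. *Rbms3* read -3.12, -2.97 and -2.95 in *Khsrp*-/- cortex, against -4.11, -4.34 and -3.50 in wild type cortex, without overlap. The wild type arrays spread over a wider range than the *Khsrp*-/- arrays, with array 3 the highest. The difference was 0.97 with an SE of 0.23, and it was 0.38 on the shared slide and 1.01 for *Khsrp*-/- array 2.

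*Rbms2* read -2.67, -2.58 and -2.88 in *Khsrp*-/- cortex, against -1.67, -1.77 and -1.83 in wild type cortex. Every *Khsrp*-/- array was below every wild type array, and the arrays of each genotype lay close together. The difference was -0.96 with an SE of 0.15, and it was -0.85 on the shared slide and -0.82 for *Khsrp*-/- array 2. With normexp background correction the differences shrank to -0.52 for *Rbms2* and 0.52 for *Rbms3*.

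*Rbmxl1*, an intronless relative of the splicing regulator *Rbmx*, read -0.16, -0.45 and -0.58 in *Khsrp*-/- cortex, against 0.49, 0.44 and 0.14 in wild type cortex. The groups did not overlap, and *Khsrp*-/- array 1 and wild type array 3 came nearest to each other. The difference was -0.75 with an SE of 0.18, the smallest of the 4 lower members, and it was -0.29 on the shared slide and -0.81 for *Khsrp*-/- array 2. Whether the probe also detects *Rbmx* was not tested.

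Among splicing regulators of the higher block, the *Mbnl* genes encode muscleblind-like proteins, which bind YGCY repeats and set the choice of exons late in development. *Mbnl1* was measured by 2 probes. The probe ASMM10P006242 read -0.97, -0.997 and -0.72 in *Khsrp*-/- cortex, against -1.61, -1.67 and -1.44 in wild type cortex, and ASMM10P006246 read -0.89, -0.82 and -0.80 against -1.44, -1.17 and -1.29. On both probes the *Khsrp*-/- arrays lay above the wild type arrays, by 0.68 (SE 0.16) and 0.46 (SE 0.15). The shared slide gave 0.47 and 0.40, and *Khsrp*-/- array 2 gave 0.58 and 0.48.

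*Mbnl3*, an X-linked member of the family, read -0.63, -0.80 and -0.41 in *Khsrp*-/- cortex, against -1.06, -1.07 and -0.88 in wild type cortex. The groups did not overlap, although *Khsrp*-/- array 2 lay close to wild type array 3. The difference was 0.39 with an SE of 0.16, and it was 0.25 on the shared slide and 0.21 for *Khsrp*-/- array 2, the smallest value of that array among the 25 higher members.

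The other splicing factors differed by less than the *Mbnl1* probe with the larger difference. *Srsf1*, a serine/arginine-rich factor that promotes exon inclusion, was higher by 0.44 (SE 0.16). *Hnrnpa3*, an hnRNP of the A/B group, was higher by 0.44 (SE 0.15), and *Nova1*, a neuronal splicing regulator that binds YCAY clusters, by 0.45 (SE 0.15). For these 3 the shared slide gave 0.33, 0.20 and 0.37, and *Khsrp*-/- array 2 gave 0.32, 0.49 and 0.38.

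*Celf1*, a CELF family protein that acts in splicing and in decay of GU-rich mRNAs, read -3.30, -3.15 and -3.25 in *Khsrp*-/- cortex, against -3.45, -3.58 and -4.11 in wild type cortex. The *Khsrp*-/- arrays were all higher, and wild type array 3 lay well below the others. The difference was 0.48 with an SE of 0.20, and it was 0.80 on the shared slide, which holds that wild type array, 0.56 for *Khsrp*-/- array 2 and 0.28 without wild type array 3.

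*Hnrnpll*, an hnRNP L-like protein best known for splicing of CD45 in lymphocytes, read 4.49, 5.18 and 5.06 in *Khsrp*-/- cortex, against 4.38, 4.39 and 4.52 in wild type cortex. *Khsrp*-/- array 1 lay below wild type array 3, the only overlap among all members. The difference was 0.48 with an SE of 0.21, and it was -0.03 on the shared slide and 0.75 for *Khsrp*-/- array 2.

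*Rbm28*, a nucleolar protein associated with spliceosomal small nuclear RNPs and ribosome assembly, was higher by 0.53 (SE 0.19), with 0.47 on the shared slide and 0.57 for *Khsrp*-/- array 2.

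Of the helicase names, *Ddx43*, a DEAD-box helicase known as a germline and tumour antigen, had the largest difference of the 25 higher members. It read -2.27, -2.13 and -1.62 in *Khsrp*-/- cortex, against -3.03, -2.93 and -3.14 in wild type cortex. All *Khsrp*-/- arrays were far above the wild type arrays, which lay within a narrow range. The difference was 1.03 with an SE of 0.20, or 2.04-fold, and it was 0.87 on the shared slide and 0.91 for *Khsrp*-/- array 2. With normexp background correction it shrank to 0.69.

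*Dhx36*, which unwinds G-quadruplexes in RNA and DNA and binds AU-rich mRNAs, was higher by 0.50 (SE 0.15), with 0.25 on the shared slide and 0.52 for *Khsrp*-/- array 2. *Ddx26b* is listed under a helicase name, but RefSeq now calls it *Ints6l*, an X-linked relative of a subunit of the Integrator complex. It was higher by 0.57 (SE 0.15), with 0.76 on the shared slide and 0.47 for *Khsrp*-/- array 2.

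The deadenylation and 3′ end factors among the members were *Cnot7*, *Cnot6* and *Cpsf1*. *Cnot7*, a catalytic deadenylase of CCR4-NOT, read -0.28, -0.45 and -0.61 in *Khsrp*-/- cortex, against -0.86, -0.77 and -0.65 in wild type cortex. The groups did not overlap, but *Khsrp*-/- array 3 lay close to wild type array 3. The difference was 0.32 with an SE of 0.16, the smallest of all members, and it was 0.38 on the shared slide and 0.32 for *Khsrp*-/- array 2.

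*Cnot6*, another deadenylase of that complex, was higher by 0.56 (SE 0.19), with 0.16 on the shared slide and 0.64 for *Khsrp*-/- array 2. *Cpsf1*, the largest subunit of the cleavage and polyadenylation specificity factor, was higher by 0.43 (SE 0.18), with 0.03 on the shared slide and 0.46 for *Khsrp*-/- array 2.

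The translation factors among the members all stood in the higher block, which holds 1522 of the 1788 named probes. *Eif2s2*, the beta subunit of eIF2, read 0.89, 1.18 and 1.27 in *Khsrp*-/- cortex, against 0.74, 0.70 and 0.77 in wild type cortex. *Khsrp*-/- arrays 2 and 3 lay well above the wild type arrays and array 1 only slightly. The difference was 0.38 with an SE of 0.16, and it was 0.12 on the shared slide and 0.44 for *Khsrp*-/- array 2.

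*Eif2s3x*, the X-linked gene for the gamma subunit, read 4.45, 4.39 and 4.78 in *Khsrp*-/- cortex, against 4.08, 4.16 and 3.96 in wild type cortex. All *Khsrp*-/- arrays were higher, among them array 2, which also carried signal for its Y-linked copy *Eif2s3y*. The difference was 0.47 with an SE of 0.17, and it was 0.49 on the shared slide and 0.32 for *Khsrp*-/- array 2. *Eif2s3x* is known to escape X inactivation and its coding sequence is nearly that of *Eif2s3y*, and the part of either in the difference was not tested.

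*Eif2d*, a factor that can bring tRNA to the ribosome without eIF2 and acts in ribosome recycling, was measured by 2 probes. The probe ASMM10P007082 read 2.58, 2.95 and 2.76 in *Khsrp*-/- cortex, against 2.34, 2.29 and 2.47 in wild type cortex, and ASMM10P053601 read 4.52, 4.73 and 5.001 against 4.06, 4.03 and 4.45. On both probes the groups did not overlap, and *Khsrp*-/- array 1 and wild type array 3 were nearly equal. The differences were 0.39 (SE 0.16) and 0.57 (SE 0.20), those on the shared slide were 0.11 and 0.07, and those of *Khsrp*-/- array 2 were 0.58 and 0.55.

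*Eif5a2*, a paralog of the elongation factor eIF5A, which carries hypusine, read -1.48, -1.58 and -1.12 in *Khsrp*-/- cortex, against -2.004, -2.17 and -1.997 in wild type cortex. The groups were clearly apart, with *Khsrp*-/- array 3 the highest. The difference was 0.66 with an SE of 0.17, and it was 0.52 on the shared slide and 0.47 for *Khsrp*-/- array 2.

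**Figure D4:**
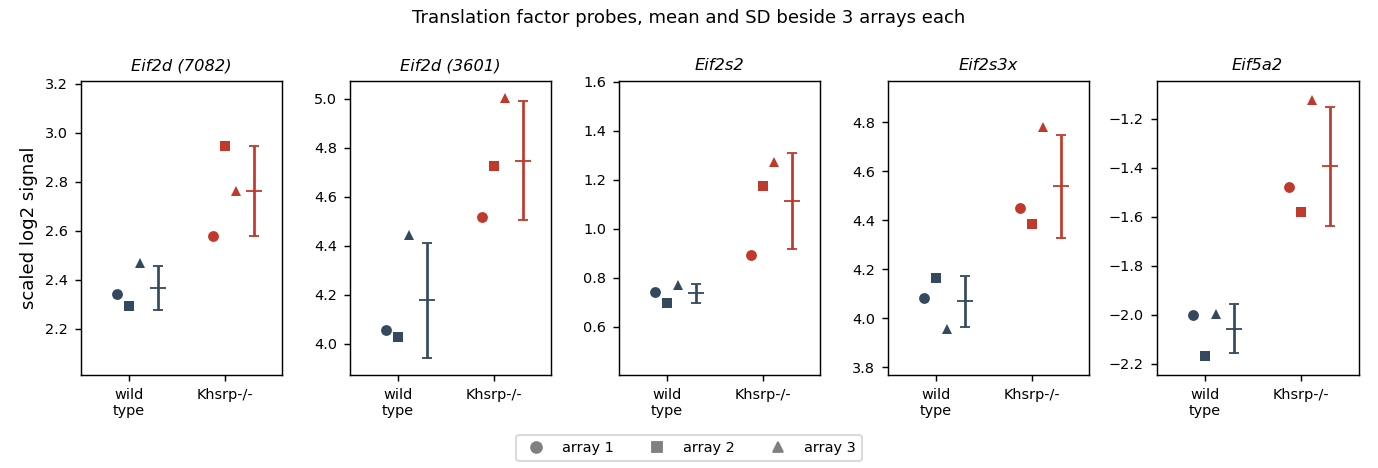
Scaled log2 signal (y axis, its own range in each panel) of the 5 translation factor probes on 3 wild type (dark blue) and 3 *Khsrp*-/- arrays (red), with mean and SD beside them and array number by marker shape. No panel shows overlap, but *Khsrp*-/- array 1 lies close to wild type array 3 on both *Eif2d* probes and on *Eif2s2*.

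The remaining members bind mature mRNA in the cytoplasm. *Igf2bp3*, an oncofetal protein that holds and stabilises its target mRNAs, was higher by 0.52 (SE 0.16), with 0.53 on the shared slide and 0.31 for *Khsrp*-/- array 2. *Ythdf3*, a reader of N6-methyladenosine, was higher by 0.37 (SE 0.15), with 0.32 on the shared slide and 0.29 for *Khsrp*-/- array 2.

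The arrays did not contribute evenly to the higher members. This is a description, since these arrays chose the members, and the shares beside the counts are over probes of either direction. *Khsrp*-/- array 3 was the highest of the 3 *Khsrp*-/- arrays in 20 of 25, where 37.3% of all probes had it highest, and array 1 was the lowest in 14, where 40.1% had it lowest. In the 4 lower members array 3 was the lowest in 4, where 26.2% of all probes had it lowest. The SD among the *Khsrp*-/- arrays had a median of 0.19 in the higher members and that among the wild type arrays 0.10, where the medians of all probes were 0.27 and 0.17.

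On the slide that holds both genotypes, *Khsrp*-/- array 1 was above wild type array 3 in 24 of 25 higher members, where 49.5% of all probes were, and below it in all 4 lower members, where 50.5% were. The median difference there was 0.38 for the higher and -0.57 for the lower members, and 15 of the 25 were higher by at least 25%. With the slide as a fixed block in limma, *Celf1*, *Ddx26b* and *Ddx43* were called among the higher members (3 of 25, where 3.65% of all probes were higher) and *Rbms2* among the lower (1 of 4, where 2.28% were lower). Slide and genotype cannot be told apart for the other 4 arrays, which lie on slides of 1 genotype.

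*Khsrp*-/- array 2, the array with Y-linked signal, was above all 3 wild type arrays in all 25 higher members, where 35.3% of all probes were, and below them in all 4 lower members, where 34.9% were. Its median difference from the wild type mean was 0.47 for the higher members and -0.82 for the lower. For the mean of arrays 1 and 3 these medians were 0.50 and -0.97. With array 2 as the only *Khsrp*-/- array, limma called 11 of 25 higher members, where 9.17% of all probes were higher, and 4 of 4 lower members, where 13.3% were lower, on the assumption that the array varies as the wild type arrays do. These are the arrays that the choice of members used.

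**Figure D5:**
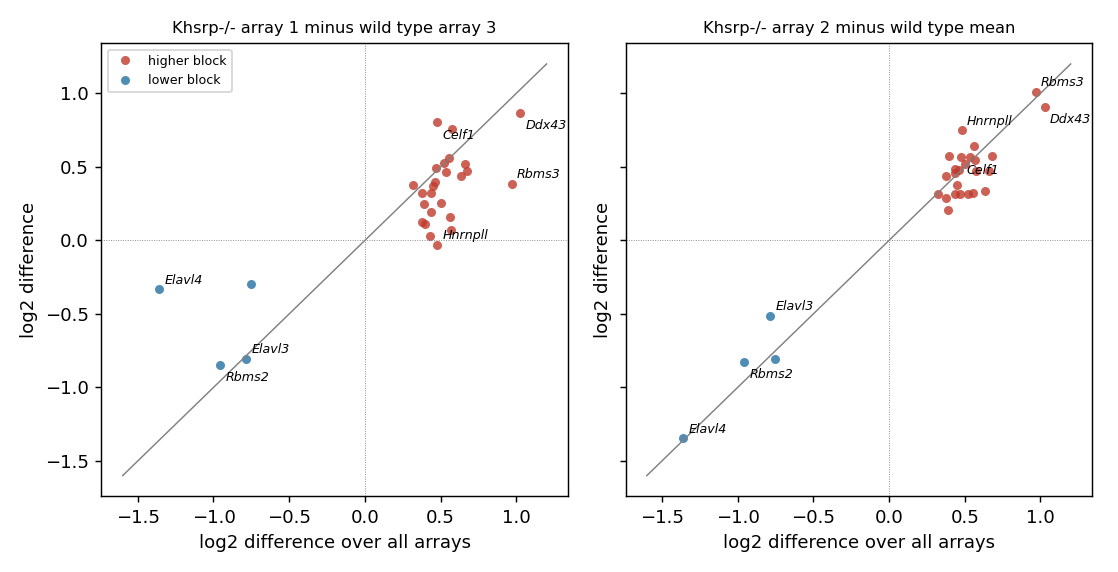
Log2 difference of each member over all arrays (x axis) against the difference on the shared slide (left) and that of *Khsrp*-/- array 2 from the wild type mean (right), with higher members in red, lower members in blue and the line of equality in grey. On the shared slide *Elavl4* (-0.33), *Rbms3* (0.38) and *Hnrnpll* (-0.03) fell short of their values over all arrays, whereas array 2 gave -1.35, 1.01 and 0.75.

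The table's limits lay near some members. *Cnot7* was 1.26-fold higher in the authors' normalized values, just above the limit of 25% for the higher block. *Rbmxl1* had a ratio of mean unscaled signals of 0.494 in *Khsrp*-/- over wild type, the nearest to equality of the lower members. Among the lower probes of the other lists below, *Lin28a* came nearest, at 0.497. Unscaled ratios are not on the scale of the *Cnot7* fold. In the authors' normalized values the lower probe described here that lay nearest to equality was *Rbmxl1*, at 0.60. On that scale the lower probes described here thus lay further from equality than the limit of the higher block. Probes just outside the limits have no name here.

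Other genes of RNA processing and translation were taken from lists of 177 genes, of which the same table names 24, with 25 probes. Because these names come from the table of changed genes too, their differences are again a description. In limma 21 probes were higher and 3 lower at the unadjusted thresholds, against the same 9.26% and 7.03% of all probes. Of the table's whole higher block 1336 of 1480 probes tested were called higher, and of its lower block 257 of 266 lower. The counts of each list below stand beside these same shares and are read no further. After adjustment 0 of the 25 probes passed, and their median difference was 0.54. The genotypes did not overlap in any of the 25, with 22 above and 3 below, where 12.4% and 9.90% of all probes had those orders. Single arrays moved these counts. Without wild type array 1 or 2, 11 and 13 probes were higher, with 5.20% and 5.68% of all probes. Without *Khsrp*-/- array 2 the higher count was 14, where 4221 of all 48436 probes were higher. Without *Khsrp*-/- array 3 it was 15, with 5.83% of all probes. The lower count was 1 without *Khsrp*-/- array 2, *Khsrp*-/- array 3 or wild type array 3, with between 4.06% and 7.09% of all probes.

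Among further mRNA-binding proteins, 7 of 22 genes were named, and 7 of their 8 probes were called higher and 1 lower. *Fubp1*, a paralog of *Khsrp* in the FUBP family, read 4.98, 5.08 and 5.27 in *Khsrp*-/- cortex, against 3.96, 4.03 and 3.71 in wild type cortex. All *Khsrp*-/- arrays were far above all wild type arrays. The difference was 1.21 with an SE of 0.16, and it was 1.28 on the shared slide and 1.18 for *Khsrp*-/- array 2, so that it was of similar size in each.

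*Ybx1*, which packages mRNA, was higher by 0.96 (SE 0.18), *Syncrip*, a component of neuronal RNA granules, by 0.82 (SE 0.21), and *Fxr1*, a relative of the fragile X protein, by 0.66 (SE 0.18). *Lin28a*, which blocks maturation of let-7 microRNAs, was lower, with a difference of -0.91 (SE 0.32). Its values were 0.51, -0.30 and -0.81 in *Khsrp*-/- cortex, against 0.71, 0.65 and 0.75 in wild type cortex, so that array 1 came near the wild type arrays, and without array 3 the difference was -0.60.

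Of 90 ribosomal protein genes 8 were named, of which 6 were called higher and 1 lower. Ribosomal protein genes have many near-identical processed copies in the genome, and whether these probes detect copies was not tested. *Rps15a* was higher by 0.88 (SE 0.19), and *Rpl41*, at 0.39 (SE 0.17), did not pass. *Rps23* read 3.93, 2.18 and 1.77 in *Khsrp*-/- cortex, against 4.01, 4.06 and 4.28 in wild type cortex, a difference of -1.49 with an SE of 0.52. *Khsrp*-/- array 1 lay next to the wild type arrays for *Rps23* and arrays 2 and 3, which share a slide, lay far below, and the shared slide of both genotypes gave -0.36.

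Of 36 genes of mRNA decay and deadenylation 4 were named, with 3 probes called higher and 1 lower. *Dcp1b*, of the decapping complex, was higher by 0.98 (SE 0.27) and *Lsm2*, of the Sm-like ring, by 0.98 (SE 0.18). Across the other scalings and background correction *Lsm2* fell as low as 0.45. *Papd4*, a cytoplasmic poly(A) polymerase, was higher by 0.43 (SE 0.17), and *Btg1*, an antiproliferative protein that binds CCR4-NOT deadenylases, was lower, with a difference of -0.78 (SE 0.21). On the shared slide *Papd4* gave only 0.06 and *Btg1* -0.36, with 0.50 for *Dcp1b* and 0.87 for *Lsm2*.

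Of 8 genes of the 3′ end and the cap 3 were named, and all 3 were called higher, with *Cstf3*, a cleavage stimulation factor, at 0.72 (SE 0.20). Of 15 splicing kinases and regulators 2 were named and both were called higher, *Srpk3* at 0.94 (SE 0.23) and *Clk3* at 0.46 (SE 0.18), both kinases of serine/arginine-rich proteins. On the shared slide *Cstf3* gave 0.52, *Srpk3* 0.88 and *Clk3* only 0.04. Of 6 genes of elongation and release 0 were named.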

How the data were processed

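Neocortex RNA of 3 *Khsrp*-/- and 3 wild type mice was depleted of rRNA, labelled with random and oligo(dT) primers and hybridised to 1-colour Agilent arrays of mRNA and lncRNA probes. The authors deposited the scanner output of Feature Extraction 11.0.1.1, whose processed signal is a linear intensity with background subtracted and no scaling between arrays. A second deposited table holds normalized log2 values, whose normalization is not given in the sources used here and which served as an alternative.

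Control and outlier spots were dropped, the log2 processed intensity was averaged over the spots of each probe, and each array's 75th percentile was subtracted. Probes were kept where 3 or more of the 6 arrays showed them well above background, and the 48436 kept were fitted in R 4.3.3 by limma 3.58.1, using lmFit and eBayes (prior degrees of freedom 3.19, median residual SD 0.25), with Benjamini-Hochberg adjustment over all of them. A probe was called at p under 0.05 and a difference between the mean log2 signals of at least log2 of 1.25, which is a 1.25-fold difference between geometric means. The number of arrays limits the precision. The fit was tested on simulated data. Tables were made with pandas 2.3.3 in Python 3.11.15, the random slide block with statmod 1.5.0 and figures with matplotlib 3.10.9.

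Symbols came from the study's table of changed genes, used only as annotation. Its 266 rows of lower probes, which carry no probe name, were each matched to 1 probe by their raw values within a relative tolerance of 2e-05. The members and all lists were chosen with earlier results of these data known. Values on every array are given for genes with 2 member probes, the *Elavl*, *Mbnl*, *Rbms* and *Eif2* families, lower members, the 5 higher probes with the largest difference and the smallest of each block. *Celf1* and *Hnrnpll* were added after their values were seen, as were the values on every array of *Fubp1*, *Lin28a* and *Rps23*. The rule's remaining sex-chromosome genes were not analysed here. The deposited fold changes and p-values were not used, nor were genome coordinates, since the array design and the gene table differ in build.

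Alternatives were other scalings, background correction, filters, tests, arrays left out, and the replicate number and the slide as blocks. A slide was taken to hold the arrays whose scan times are identical.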

Additional observations from a re-analysis of the deposited data

How the results depend on the processing

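Across 19 alternatives that give a difference, 550 of 551 values of single members kept their direction, and 55 of those 550 moved by over 1 SD between arrays. The exception was *Hnrnpll*, at -0.0299 with the slide as a block, where the shared slide alone sets the difference. Both filters, the median over spots and the replicate block gave every member the same difference as the main fit, so their values could not turn. The other alternatives use the arrays that chose the members by direction, so the count of kept directions is only a description. Without scaling 2 higher members passed the unadjusted thresholds and 6 probes of the other lists were higher, and the medians were 0.19 for the higher and -1.16 for the lower members. With the slide as a block the counts were 3 higher and 1 lower members and 3 higher and 0 lower probes of the other lists, and the lower members' median was -0.57. With the methods' t-test 1 probe of the other lists was lower, where 1817 of all 48436 probes were, against 3405 in the main fit. Leaving out each array gave 8 to 22 higher and 4 lower members, 0 to 3 members after adjustment, 11 to 22 higher and 1 to 3 lower probes of the other lists, and medians of 0.42 to 0.54 and of -0.97 to -0.77. Without *Khsrp*-/- arrays 1 and 3 together 11 higher members passed. Whether the replicate numbers pair the samples is not given. Deviations of same-numbered arrays correlated at -0.31, 0.11 and -0.31, but the slides also shape these deviations, so the correlations cannot decide it. With the replicate block 12 higher members passed, where 3540 of all 48436 probes were called higher. The cause of these shifts was not tested, beyond the fewer arrays and degrees of freedom that the block and leave-out settings have by construction. The lowest values of *Rbms3* and *Celf1*, -4.34 and -4.11, compare with the dimmest probes well above background, at -5.36 to -4.15 on the 6 arrays.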
